A study of Mus musculus with 4 samples.

Results

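The platelet glycoproteins and megakaryocyte genes described here are 10 genes, Itga2b, Itgb3, Gp1ba, Gp1bb, Gp9, Gp5, Gp6, Pf4, Ppbp and Treml1, taken by symbol from the 32285 genes of the feature lists. They were followed as counts of unique molecular identifiers (UMIs, 1 per captured transcript) in single cells of the mouse aorta-gonad-mesonephros region, where definitive haematopoiesis begins, at embryonic day 11.5. All cells came from C57BL/6J embryos and were sorted for CD31, a surface protein of endothelial and many blood cells that megakaryocytes also carry. TMRM, a fluorescent dye that reports the electrical potential across the mitochondrial membrane, divided them into a low gate (MMPlow) and a high gate (MMPhigh), each with 2 libraries (MMPlow 1 and 2, MMPhigh 1 and 2). The labels name no allele, drug or transgene, and they give neither the number of embryos nor whether libraries of a gate came from separate sorts, so each p below measures only the spread between these libraries.

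Megakaryocytes are the large blood cells that shed platelets, and in the embryo they appear early, before adult-type stem cells expand. Itga2b (CD41) and Itgb3 (CD61) encode the fibrinogen receptor and are switched on early, Itga2b already in blood progenitors. Gp1ba, Gp1bb, Gp9 and Gp5 encode the receptor complex for von Willebrand factor, and Gp6 encodes a collagen receptor; these appear later as megakaryocytes mature. Pf4 and Ppbp encode chemokines stored in platelet alpha granules, and Treml1 encodes another protein of the alpha granule membrane. Itga2b, Itgb3 and Pf4 are called early genes here and the other 7 late genes, after textbook usage.

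Platelet genes are known targets of GATA and ETS factors, so the 250 bases before each start site were searched in RefSeq sequence of GRCm38.p6, which held 9 of the 10 genes. The search letters were GATAA for GATA, GGAAG for ETS and TGTGGT for RUNX, on both strands. GATAA or its complement TTATC was found in 4 of the 9 promoters, against 22.6% of 32851 promoters of the same length. GGAAG was found in 8 of 9, against 64.1% of promoters, and TGTGGT in 1 of 9, Gp9, against 14.0%. A match is a description of letters and not a bound site, and no binding was measured. The 4 promoters with GATAA or TTATC, all of late receptor genes, are shown with those letters in capitals. The promoters of Pf4 and Ppbp, genes that lie 2371 bases apart on chromosome 5, are shown for comparison; neither holds the letters.
Gp9, chr6:87777820-87778069, plus strand: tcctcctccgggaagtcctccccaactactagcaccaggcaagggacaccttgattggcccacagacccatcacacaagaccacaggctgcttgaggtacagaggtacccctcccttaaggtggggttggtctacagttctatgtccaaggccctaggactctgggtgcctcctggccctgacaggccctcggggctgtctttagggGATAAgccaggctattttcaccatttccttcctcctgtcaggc
Gp6, chr7:4397745-4397994, minus strand: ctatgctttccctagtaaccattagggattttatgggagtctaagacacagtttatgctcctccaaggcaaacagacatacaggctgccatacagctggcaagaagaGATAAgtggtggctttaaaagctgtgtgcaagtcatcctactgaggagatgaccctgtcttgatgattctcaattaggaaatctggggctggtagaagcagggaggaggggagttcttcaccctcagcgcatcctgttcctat
Gp1ba, chr11:70638872-70639121, plus strand: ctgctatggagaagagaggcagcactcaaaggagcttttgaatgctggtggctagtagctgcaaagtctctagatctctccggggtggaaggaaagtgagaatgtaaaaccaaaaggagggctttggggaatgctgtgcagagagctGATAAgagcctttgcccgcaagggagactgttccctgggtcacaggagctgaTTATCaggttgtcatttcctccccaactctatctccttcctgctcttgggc
Gp5, chr16:30310782-30311031, minus strand: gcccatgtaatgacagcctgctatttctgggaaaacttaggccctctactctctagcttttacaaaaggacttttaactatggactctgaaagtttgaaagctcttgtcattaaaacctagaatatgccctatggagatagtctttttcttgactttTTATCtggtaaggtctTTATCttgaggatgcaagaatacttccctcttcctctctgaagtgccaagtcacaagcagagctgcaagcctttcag
Pf4, chr5:90772185-90772434, plus strand: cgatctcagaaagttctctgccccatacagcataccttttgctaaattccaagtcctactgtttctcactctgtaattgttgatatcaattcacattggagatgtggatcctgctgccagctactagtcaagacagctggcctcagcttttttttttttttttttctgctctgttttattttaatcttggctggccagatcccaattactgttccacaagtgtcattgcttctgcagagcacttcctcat
Ppbp, chr5:90768268-90768517, plus strand: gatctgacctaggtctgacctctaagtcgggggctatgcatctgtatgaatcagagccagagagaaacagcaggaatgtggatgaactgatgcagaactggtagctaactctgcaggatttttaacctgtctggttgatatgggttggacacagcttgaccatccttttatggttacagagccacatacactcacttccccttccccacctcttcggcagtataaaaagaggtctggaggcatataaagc
Counted back from the start site, the first base of the match lay at -43 in Gp9, at -143 in Gp6, at -103 and -51 in Gp1ba, and at -93 and -77 in Gp5.

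The libraries held between 51800709 and 120168395 UMIs. Filters and doublet removal left 15698 cells of MMPlow 1, 18583 of MMPlow 2, 4139 of MMPhigh 1 and 3418 of MMPhigh 2, with median depths of 3082, 3651, 3796 and 23669 UMIs, so MMPhigh 2 stood apart in depth. Cells were clustered without the 10 genes and named from 11 other marker lists, of which the megakaryocyte list holds none of the 10. Endothelial-like cells numbered 7697 and 8758 in the MMPlow libraries but 15 and 13 in the MMPhigh libraries, so nearly all retained MMPhigh cells were of other classes. A cluster led by Afp and other plasma protein genes held 1770 cells of MMPhigh 1 and stayed unnamed. Between 7 and 82 barcode sequences were shared by pairs of libraries, and 1 of them marked a megakaryocyte-like cell in both.

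One cluster of 2363 cells carried the megakaryocyte markers. It held 1008 and 1122 cells of MMPlow 1 and 2, or 6.42% and 6.04% of the retained cells, and 136 and 97 cells of MMPhigh 1 and 2, or 3.29% and 2.84%. The mean share of MMPlow was 6.23% ± 0.27 (SD, n = 2), and that of MMPhigh was 3.06% ± 0.32 (SD, n = 2). An exact permutation test over libraries gave p = 0.333, the smallest that 2 against 2 allows. With only cells of at least 5000 UMIs the gates overlapped, at 3.18% and 5.62% against 3.50% and 2.89%. They also overlapped with a looser filter of 1000 UMIs and 500 genes, at 2.35% and 5.45% against 2.52% and 2.86%. That filter kept 54782 barcodes of MMPlow 1, from a lane aimed at up to 10000 cells. It kept 22407 of MMPlow 2, 8993 of MMPhigh 1 and 3528 of MMPhigh 2. Before doublet removal the reported filter passed 16700 and 19579 barcodes of MMPlow 1 and 2, also above 10000, and 4403 and 3486 of MMPhigh 1 and 2. At a finer clustering resolution of 2 the difference of MMPhigh from MMPlow was -1.08 percentage points in place of -3.17. Without a cluster of 135 cells led by Ppbp, which also took the megakaryocyte name, it was -2.87.

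All 10 genes were highest in the megakaryocyte-like cells. In each library and for each gene, the level in the summed cells of that class, given as CPM (UMIs of the gene scaled to a common library total), exceeded the level in every other named class of at least 20 cells. The ratio to the highest other named class ranged from 5.75 for Gp1bb in MMPlow 1 to 112 for Ppbp in MMPhigh 2. Unnamed cells are left out of these ratios. In MMPhigh 2 they held Ppbp at 52.6 CPM, against 272 CPM in the megakaryocyte-like cells, and 23.4% of that library's Ppbp UMIs. The cells of this class were grouped by expression, so these ratios are a description with no test. Of all retained UMIs of a gene, the class held between 55.2% (Gp1bb) and 77.8% (Gp6), in 2363 of 41838 cells. With the looser filter these shares were lower, at 37.4% for Gp1bb, 48.6% for Pf4 and 64.6% for Gp6. The gene counted as Gp1bb overlaps Sept5 and Gm49601 on the same strand, which makes its counts uncertain.

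**Figure D1:**
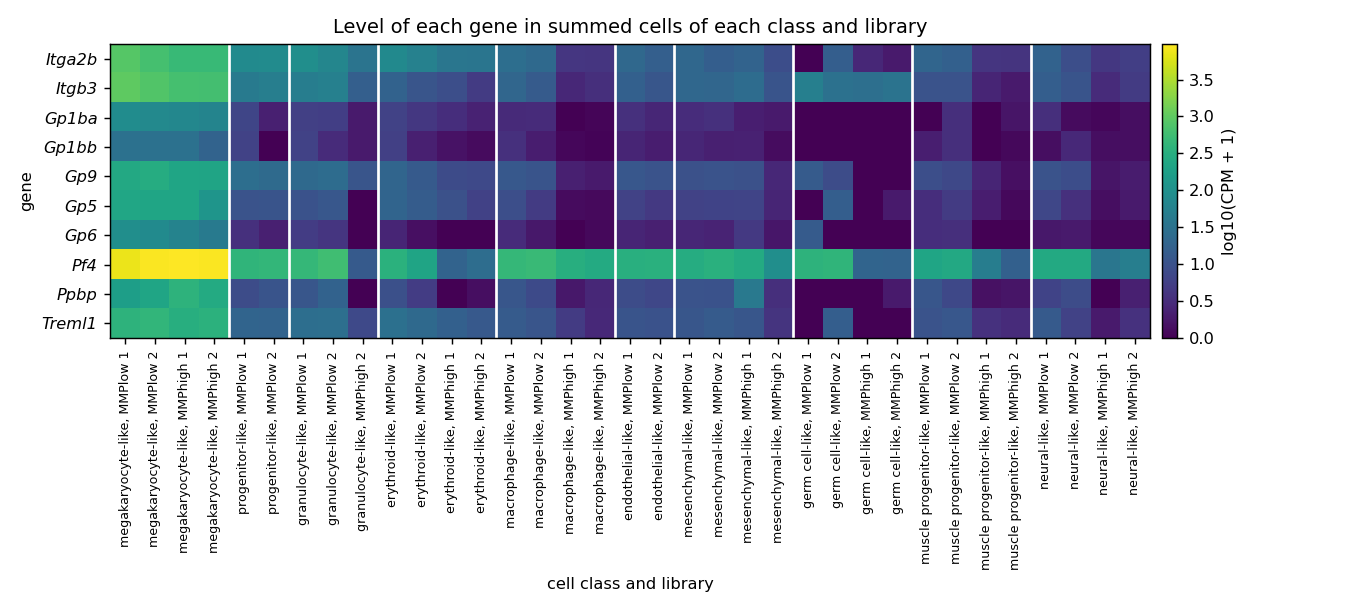
Level of the 10 genes, as log10(CPM + 1), in the summed cells of each class and library with at least 20 cells; classes are separated by white lines and the progenitor-like cells come from the finer clustering. The 4 megakaryocyte-like columns on the left are the brightest in every row, and the Pf4 row is bright in all MMPlow columns.

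Droplets can pick up transcripts released by other cells, and this free RNA was not measured from empty droplets. Neural and neural crest-like cells, which should hold none of the 10, served as the reference instead. Their Pf4 level was 261 and 260 CPM in MMPlow 1 and 2 and 36.1 and 49.3 CPM in MMPhigh 1 and 2. Both MMPlow libraries were far above both MMPhigh libraries. In barcodes under 2000 UMIs, which are not among the retained cells, Pf4 was at 1038 and 886 CPM in MMPlow 1 and 2 and at 581 and 326 CPM in MMPhigh 1 and 2. The reference is not free of stray cells: 2 of its cells in MMPlow 1 and 7 in MMPhigh 2 held at least 5 of the 10 genes. In MMPhigh 2 those 7 of 1164 cells carried 64.5% of the Pf4 UMIs and 57.6% of the Itga2b UMIs, and without them Pf4 was at 17.7 and Itga2b at 1.95 CPM. At an equal depth of 2000 UMIs per cell, 47.6% (exact 95% binomial interval 43.3 to 52.0) and 47.2% (43.1 to 51.4) of neural-like cells of MMPlow held a Pf4 UMI, against 13.3% (11.1 to 15.9) and 4.64% (3.50 to 6.01) in MMPhigh. Such intervals cover counting error only. Levels in other classes are therefore read against the neural-like cells of the same library. Cell depth was not matched between classes. Averaged over libraries, median depth relative to the library was 1.12 and 1.21 in the 2 neural-like clusters and 1.80 in the larger erythroid-like cluster. The part of depth in levels above or under the reference was not tested.

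The fibrinogen receptor genes were strong in megakaryocyte-like cells of both gates. Itga2b, encoding the alpha chain CD41, stood at 846 and 629 CPM in MMPlow 1 and 2 and at 480 and 476 CPM in MMPhigh 1 and 2. Both MMPlow libraries were above both MMPhigh libraries, with the 2 MMPlow libraries far apart. The fitted difference was -0.49 (log2 of MMPhigh over MMPlow, SE 0.17), with an adjusted p of 0.0750 in edgeR's quasi-likelihood test, so it did not pass. It passed in edgeR without MMPlow 2 (adjusted p = 0.0255) and at clustering resolutions 0.5 and 2 (adjusted p = 0.0393 and 0.0237). At resolution 2 without the cluster led by Ppbp it did not (-0.45, adjusted p = 0.131). In cells of at least 5000 UMIs the gates overlapped, at 642 and 470 CPM in MMPlow and 487 and 472 CPM in MMPhigh, and the difference was -0.18 (edgeR adjusted p = 0.714). Itgb3, encoding the beta chain CD61, followed the same order at 991, 797, 629 and 607 CPM, and its difference of -0.39 (SE 0.17) had an edgeR adjusted p of 0.134, and of 0.0459 at resolution 0.5. It too overlapped in the deeper cells, at 860 and 630 CPM against 671 and 606 CPM.

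No gene of the von Willebrand factor receptor complex passed the test between the gates. Gp9, encoding its small subunit GPIX, was at 254 and 290 CPM in MMPlow and 221 and 212 CPM in MMPhigh. Gp1ba, encoding the ligand-binding chain, was at 85.0, 72.6, 69.0 and 60.9 CPM in the same order. For both, the MMPlow values lay above the MMPhigh values in these sums. With each cell thinned to 2000 UMIs the gates overlapped, at a mean of 0.426 and 0.542 Gp9 UMIs per cell in MMPlow and 0.463 and 0.505 in MMPhigh, and of 0.152 and 0.148 Gp1ba UMIs against 0.162 and 0.103. The Gp9 difference was 0.11 after thinning (edgeR adjusted p = 0.844), while in cells of at least 5000 UMIs it was -0.73 and passed (adjusted p = 0.0214). Gp5 stood at 224, 216 and 214 CPM in the first 3 libraries and at 116 CPM in MMPhigh 2, which alone was low. Gp1bb was at 29.5, 29.1 and 29.1 CPM and at 17.3 CPM in MMPhigh 2, again with 1 low library and with the other 3 almost level. The edgeR adjusted p of the 4 lay between 0.440 and 0.596 and the fitted differences between -0.31 and -0.15. Without MMPhigh 1 the difference of Gp5 became -0.73 with an edgeR adjusted p of 0.00346, and without MMPhigh 2 it was 0.09.

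Gp6, the collagen receptor gene, was lower in MMPhigh megakaryocyte-like cells. It stood at 92.7 and 80.8 CPM in MMPlow 1 and 2 and at 59.0 and 43.3 CPM in MMPhigh 1 and 2. The gates did not overlap, and Gp6 fell by 0.67 on the log2 scale (SE 0.18, edgeR adjusted p = 0.0222). The call was lost without MMPlow 1 (-0.59, adjusted p = 0.142), without MMPhigh 2 (-0.43, adjusted p = 0.312), with the DESeq2 Wald test (-0.64, adjusted p = 0.150) and when the 10 genes were allowed into the clustering (-0.52, adjusted p = 0.0739). It was also lost at resolution 2 without the Ppbp-led cluster (-0.53, edgeR adjusted p = 0.108).

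The 2 chemokine genes were both higher in the MMPhigh sums, and only Ppbp passed the test. For Pf4, MMPhigh 2 lay just above MMPlow 2. Pf4 was at 7271 and 9022 CPM in MMPlow and 9573 and 9087 CPM in MMPhigh, a difference of 0.33 (SE 0.20, edgeR adjusted p = 0.312). Ppbp, its neighbour on the chromosome, was at 169 and 215 CPM in MMPlow and 375 and 272 CPM in MMPhigh. Ppbp rose by 0.87 on the log2 scale (SE 0.18, edgeR adjusted p = 0.00707), with both MMPhigh libraries above both MMPlow libraries. At 2000 UMIs per cell, 12.3% (10.3 to 14.5) and 12.5% (10.6 to 14.6) of MMPlow megakaryocyte-like cells held a Ppbp UMI, against 36.0% (28.0 to 44.7) in MMPhigh 1 and 16.5% (9.73 to 25.4) in MMPhigh 2. MMPhigh 1 was the high library by this measure, and the gates were not tested on it. Among neural-like cells the same share was at most 1.71% in any library.

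The Ppbp call depended on which cells were counted. It held without each library in turn, with edgeR adjusted p from 1.06e-05 to 0.0301. It was lost at clustering resolutions 0.5 (0.85, adjusted p = 0.0525) and 2 (0.99, adjusted p = 0.0665), and passed at resolution 2 without the Ppbp-led cluster (1.12, adjusted p = 0.0423). With cells of at least 5000 UMIs the difference was -0.02 with an adjusted p of 0.973.

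Treml1, which encodes a receptor of the alpha granule membrane, was at 380 and 422 CPM in MMPlow and 310 and 358 CPM in MMPhigh, with an edgeR difference of -0.12 (SE 0.16, adjusted p = 0.681). In this class 1 of the 10 genes was therefore higher and 1 lower in MMPhigh, where 13.8% of 11836 tested genes were called, 5.17% higher and 8.61% lower. Markers of other cells moved with the gate inside the class. The summed endothelial markers were at 1012 and 891 CPM in MMPlow, with 12 of 12 detected, and at 233 and 249 CPM in MMPhigh, with 7 and 8 of 12 detected and Cldn5, Robo4 and Sox17 at 0 in both. The summed granulocyte and mast markers were at 325, 284, 38.2 and 17.6 CPM, and the macrophage markers at 359, 284, 585 and 467 CPM. Their part in the differences of the 10 genes was not tested, and in any sum fewer cells of a type and less RNA per cell cannot be told apart.

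**Figure D2:**
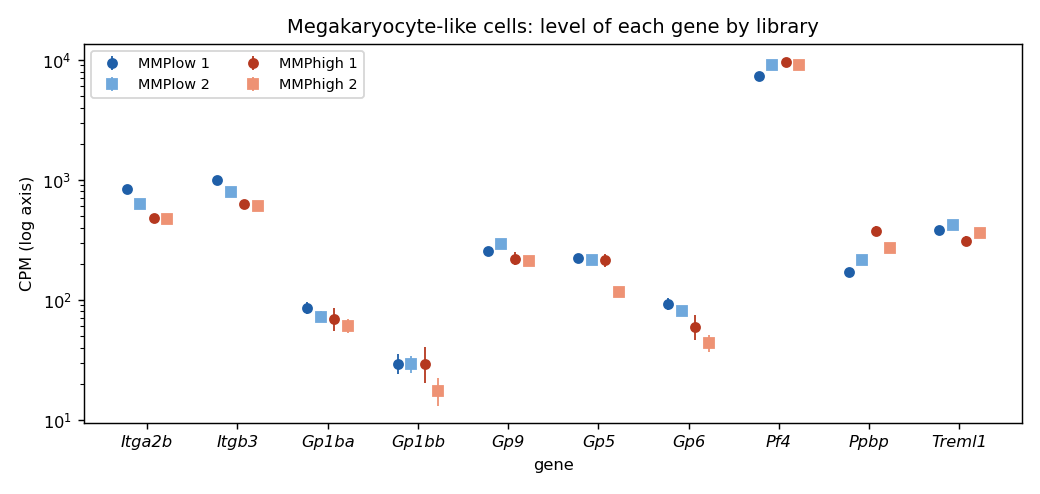
CPM on a log axis of each gene in the summed megakaryocyte-like cells of the 4 libraries, with exact Poisson intervals that cover counting error only. Ppbp is higher in both MMPhigh libraries (375 and 272 against 169 and 215 CPM), and Gp6 is lower in both (59.0 and 43.3 against 92.7 and 80.8 CPM).

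Within the class, levels of several genes followed the depth of the cell, and the depth differed between libraries. Megakaryocyte-like cells of at least 5000 UMIs made up 10.2% of the class in MMPlow 1, 27.7% in MMPlow 2, 40.4% in MMPhigh 1 and 94.8% in MMPhigh 2. In MMPlow 1 Pf4 was at 3547 CPM in the shallower cells and 19653 CPM in the deeper ones. In MMPlow 2 it was at 4947 and 13179 CPM. Ppbp moved the same way, from 122 to 328 CPM in MMPlow 1 and from 130 to 301 CPM in MMPlow 2. Gp9, another late gene, was at 215 and 384 CPM in MMPlow 1 and at 246 and 335 CPM in MMPlow 2.

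The fibrinogen receptor genes ran opposite to these in the same libraries. Itga2b was lower in the deeper cells, at 907 against 642 CPM in MMPlow 1 and 785 against 470 CPM in MMPlow 2. Itgb3 went from 1031 to 860 CPM and from 962 to 630 CPM. Itga2b and Itgb3 were the 2 of the 10 genes that were lower in the deeper cells of both MMPlow libraries. Gp5 was higher in MMPlow 1 (214 against 255 CPM) and lower in MMPlow 2 (223 against 208 CPM). Gp1ba, Gp1bb, Gp6 and Treml1 were higher in the deeper cells of both, as Gp6 at 82.6 and 126 CPM in MMPlow 1 and 79.8 and 81.8 CPM in MMPlow 2. MMPhigh 1 did not repeat this order, with Pf4 at 11888 CPM in shallower and 9004 CPM in deeper cells, Ppbp at 518 and 340 CPM and Itga2b at 451 and 487 CPM. MMPhigh 2 had 5 shallower cells and gives no comparison. This split was chosen after the data were seen and was not tested.

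Among cells of at least 5000 UMIs the order of the gates for Pf4 turned, though these cells were not alike in depth. Their median depths were 7061 and 7272 UMIs in MMPlow 1 and 2 and 9796 and 38002.5 UMIs in MMPhigh 1 and 2. At 5000 UMIs or more Pf4 was at 19653 and 13179 CPM in MMPlow against 9004 and 9117 CPM in MMPhigh, and the edgeR difference was -0.83 with an adjusted p of 0.0321. Ppbp was then at 328, 301, 340 and 273 CPM, with overlapping gates. The direction of the Pf4 gate difference in megakaryocyte-like cells thus depended on which cells were counted, and among these deeper cells depth was not matched between the gates.

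**Figure D3:**
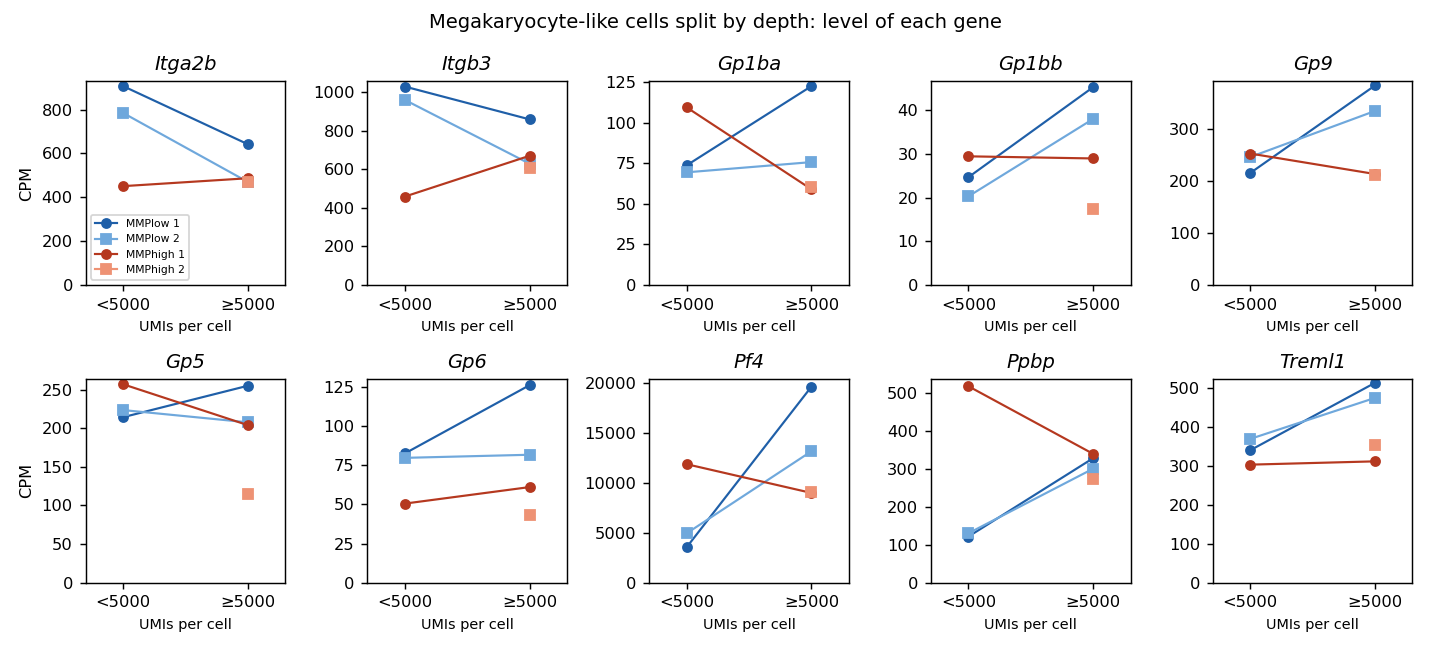
CPM of each gene in megakaryocyte-like cells under and at or above 5000 UMIs, one line per library and axes starting at 0; the 5 shallower cells of MMPhigh 2 are not drawn. The MMPlow lines climb for Pf4 (from 3547 to 19653 and from 4947 to 13179 CPM) and drop for Itga2b.

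Most megakaryocyte-like cells held a UMI of an early and of a late gene. At 2000 UMIs per cell the median number of the 10 genes with a UMI was 4 in MMPlow 1, MMPlow 2 and MMPhigh 1 and 3 in MMPhigh 2. A late gene was detected in 75.1% (72.3 to 77.7), 74.7% (72.0 to 77.2), 77.9% (70.0 to 84.6) and 68.0% (57.8 to 77.1) of the cells. Among neural-like cells a late gene was detected in 9.14%, 5.40%, 1.37% and 1.03%. An early gene was detected in 96.6%, 95.9%, 94.1% and 93.8% of the megakaryocyte-like cells, against 49.9%, 50%, 14.7% and 4.90% of the neural-like cells, so an early UMI in a single MMPlow cell tells little. Megakaryocyte-like cells with early genes alone made up between 18.4% and 27.8%, and those with late genes alone between 1.69% and 2.21%.

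Progenitor-like cells of MMPlow held the early receptor genes above the neural-like level. No cluster took the progenitor name at the reported resolution, and the cells described are those of a cluster at resolution 2 led by Angpt1, Tespa1, Ikzf2 and Hlf, of which Hlf marks blood stem and progenitor cells. It held 390 and 440 MMPlow cells and 2 and 13 MMPhigh cells, too few in MMPhigh for a test or a level. Itga2b was at 80.8 and 82.9 CPM in MMPlow 1 and 2, against 16.5 and 7.97 CPM in neural-like cells, and Itgb3 at 42.9 and 48.8 CPM against 14.5 and 9.89 CPM. In both libraries the Poisson interval of these 2 genes lay wholly above that of the neural-like cells.

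Several late genes could not be told from the reference in the same progenitor-like cells. Gp1ba was at 5.89 and 1.22 CPM, against 2.42 and 0.319 CPM in neural-like cells. Ppbp was at 7.57 and 9.75 CPM, against 5.25 and 7.34 CPM, and Gp6 at 2.52 and 1.22 CPM, against 0.807 and 0.957 CPM. Gp1bb was at 5.05 and 0 CPM, against 0.404 and 1.91 CPM. The intervals of these 4 genes overlapped those of the neural-like cells. Several of the levels rest on few UMIs, as 7 for Gp1ba in MMPlow 1, so the overlap does not show that a gene was absent. Relative to the reference, Gp1ba was at 2.43 and 3.82, and Ppbp at 1.44 and 1.33. Itgb3, with intervals above the reference, was at 2.95 and 4.93. Early and late genes were not tested against each other. Gp5 and Treml1 were above the reference in MMPlow 2 alone. Gp5 was at 9.25 and 9.75 CPM against 6.05 and 2.55 CPM, and Treml1 at 18.5 and 17.7 CPM against 12.5 and 5.10 CPM. It was thus the reference that differed more between the libraries. Gp9 was above the reference in both libraries, at 26.1 and 22.6 CPM against 9.28 and 7.66 CPM. So was Pf4, at 396 and 438 CPM against 261 and 260 CPM. The parts of free RNA and of depth in these levels were not tested. Granulocyte and mast-like cells of MMPlow also held Itga2b, at 91.9 and 67.2 CPM, and Itgb3, at 46.9 and 52.7 CPM. Late genes were found there too, with Gp9 at 22.0 and 24.4 CPM and Treml1 at 26.0 and 27.8 CPM, and all 4 were above the reference in both MMPlow libraries. At full depth, 5 of 811 of these cells in MMPlow 1 and 22 of 1710 in MMPlow 2 held at least 5 of the genes. They are included in the levels, and the share of UMIs they carried is not given here.

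In erythroid-like cells of both MMPhigh libraries Itga2b, Treml1, Gp5, Gp9 and Gp1ba were above the neural-like reference, by intervals that did not overlap. Their median depths were 41163 and 55825 UMIs in MMPhigh 1 and 2. Itga2b was at 35.8 and 33.7 CPM there, against 3.41 and 4.55 CPM in neural-like cells. Treml1 was at 15.4 and 12.1 CPM against 0.974 and 2.75 CPM, and Gp5 at 8.84 and 4.89 CPM against 0.390 and 0.926 CPM. Of the erythroid-like cells, 8 of 139 in MMPhigh 1 and 27 of 359 in MMPhigh 2 held at least 5 of the genes. These cells are included in the levels, and the share of UMIs they carried is not given here. As a mean of both MMPhigh libraries at full depth, 59.7% of erythroid-like cells held an Itga2b UMI. The same mean was 28.5% for Treml1, 23.5% for Gp5, 18.9% for Gp9 and 7.30% for Gp1ba.

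Gp9, at 7.11 and 6.62 CPM, and Gp1ba, at 2.31 and 1.44 CPM, were likewise above the neural-like level in both MMPhigh libraries. Itgb3 was above it in MMPhigh 1 (8.07 against 2.14 CPM) and not in MMPhigh 2 (3.84 against 3.91 CPM). The chemokine and collagen receptor genes were not above it in MMPhigh when all neural-like cells were counted. Pf4 was at 17.7 and 25.7 CPM, under the neural-like 36.1 and 49.3 CPM. Without the 7 neural-like cells of MMPhigh 2 that held at least 5 of the genes, the Pf4 reference of that library was 17.7 CPM. The erythroid-like 25.7 CPM lay above that value. Ppbp had 0 UMIs in MMPhigh 1 and 8 in MMPhigh 2, and Gp6 was at 0 in both. Per 100 Pf4 UMIs, erythroid-like cells held 202 (exact interval 157 to 262) and 131 (117 to 147) Itga2b UMIs in the MMPhigh libraries, while megakaryocyte-like cells held 5.01 (4.60 to 5.45) and 5.24 (4.98 to 5.51) and neural-like cells 9.46 (6.49 to 13.4) and 9.24 (7.87 to 10.8). The parts of free RNA and of depth in the erythroid-like values were not tested. In MMPlow the erythroid-like levels were higher, with Itga2b at 77.1 and 54.5 CPM, beside the higher reference level of those libraries, and Pf4 was above the reference in MMPlow 1 (343 against 261 CPM) and under it in MMPlow 2 (209 against 260 CPM).

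In macrophage-like cells of MMPhigh, Pf4 was above the reference and Itga2b was not. In MMPhigh 1 and 2 Pf4 was at 310 and 267 CPM, above the 36.1 and 49.3 CPM of neural-like cells, and 24.3% (20.2 to 28.8) and 19.7% (16.9 to 22.6) of cells held a UMI at 2000 UMIs per cell. Itga2b was at 3.31 and 3.05 CPM, no higher than in neural-like cells as a whole, and Gp9, Gp5, Gp1ba, Gp1bb and Gp6 were each at 1.26 CPM or less. Treml1 was at 3.94 CPM in MMPhigh 1, above the neural-like 0.974 CPM, and at 1.83 CPM in MMPhigh 2, under the neural-like 2.75 CPM. Itga2b made 1.07 (0.66 to 1.64) and 1.14 (0.87 to 1.47) UMIs per 100 of Pf4, against 5.01 and 5.24 in megakaryocyte-like and 9.46 and 9.24 in neural-like cells. The source of this Pf4 was not tested. Pf4 was also above the reference in mesenchymal-like cells, at 270 and 93.4 CPM, where 2 cells of MMPhigh 1 and 1 cell of MMPhigh 2 with at least 5 of the genes carried 91.2% and 87.6% of the UMIs. In macrophage-like cells such cells numbered 0 and 2 and carried 0.133% of the Pf4 UMIs of MMPhigh 2. Without such cells, Itga2b in MMPhigh 2 was at 2.66 CPM in macrophage-like and 1.95 CPM in neural-like cells.

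In macrophage-like cells of MMPlow, Pf4 was at 452 and 492 CPM, against 261 and 260 CPM in neural-like and 320 and 334 CPM in endothelial-like cells. Granulocyte and mast-like cells had 441 and 581 CPM and progenitor-like cells 396 and 438 CPM, so macrophage-like cells were not the highest of these classes in MMPlow 2. Itga2b made 5.87 (4.91 to 6.98) and 4.50 (3.82 to 5.26) UMIs per 100 of Pf4. The same ratio was 11.6 (11.2 to 12.1) and 6.97 (6.73 to 7.22) in megakaryocyte-like cells, 6.53 (6.01 to 7.08) and 4.55 (4.19 to 4.94) in endothelial-like cells and 6.34 (4.50 to 8.69) and 3.07 (1.98 to 4.57) in neural-like cells. Macrophage-like cells were thus under the megakaryocyte-like ratio in both MMPlow libraries, as endothelial-like and neural-like cells were. Different clusters held most of the class in the 2 gates. A cluster led by Gm2245 and F13a1 held 1036 and 1225 MMPlow but 15 and 20 MMPhigh cells, and the cluster led by complement C1q genes held 324, 445, 384 and 768 cells.

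**Figure D4:**
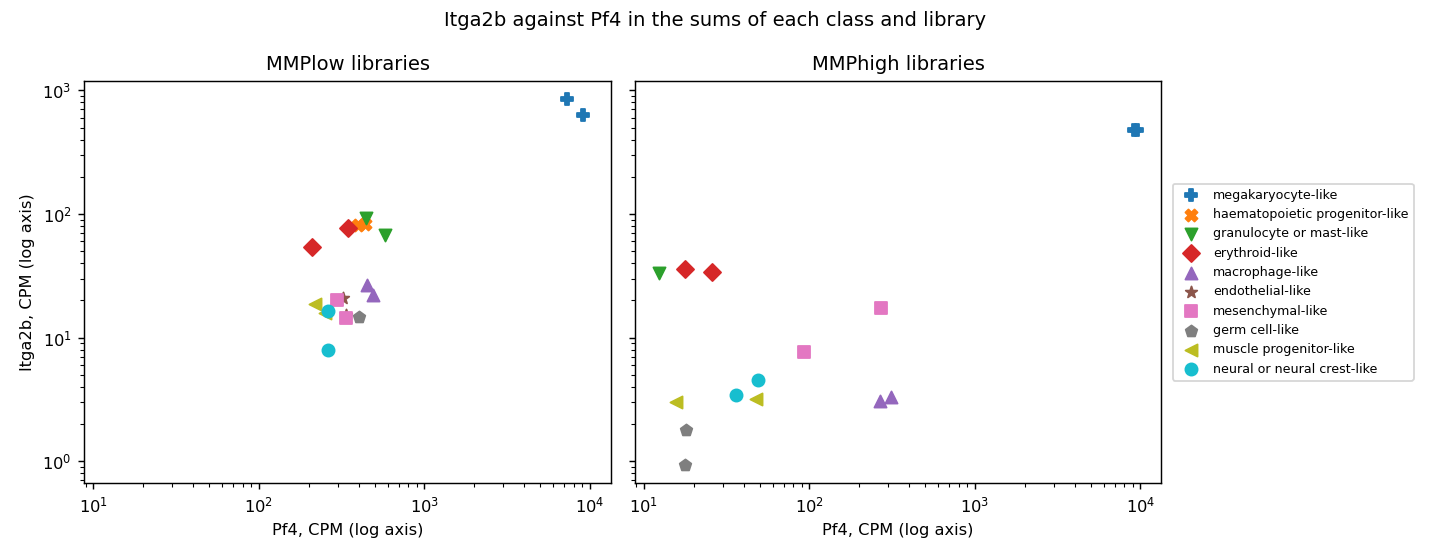
Itga2b against Pf4, both in CPM on log axes, in the sums of each class and library with at least 20 cells, MMPlow on the left and MMPhigh on the right; sums with no Itga2b UMI are not drawn. In MMPhigh the macrophage-like sums lie right of the neural-like ones at a like Itga2b level (3.31 and 3.05 CPM), and the erythroid-like sums lie above them at lower Pf4.

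The comparison of gates over all retained cells asked how much of the set each gate carried in total. Itga2b was at 77.2 and 61.5 CPM in MMPlow and 25.4 and 26.1 CPM in MMPhigh. Pf4 was at 739 and 891 CPM in MMPlow and 437 and 398 CPM in MMPhigh. For both genes the gates were well apart. Of the 10 genes, 9 fell in MMPhigh by edgeR's test, and 53.6% of 20393 genes were called, 26.4% lower and 27.1% higher. Their log2 differences lay between -1.71 (Gp6, SE 0.21, adjusted p = 0.000267) and -0.93 (Pf4, SE 0.14, adjusted p = 0.000698).

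Ppbp was the exception in the whole sums. It stood at 17.6 and 20.3 CPM in MMPlow and 17.5 and 12.6 CPM in MMPhigh, a difference of -0.31 (SE 0.18, edgeR adjusted p = 0.182). MMPhigh 1 lay just under MMPlow 1. Mesenchymal-like cells carried 30.4% of the Ppbp UMIs of MMPhigh 1, nearly all of them in 2 cells, and the gates were not compared without these cells. The difference passed without MMPhigh 1 (-0.57, adjusted p = 0.00183), with a looser cell filter (-0.59, adjusted p = 0.0108) and with no filter on low genes (-0.33, adjusted p = 0.0136), and it was 0.22 (adjusted p = 0.261) with cells thinned to 2000 UMIs. The lower totals stand beside the lower share of megakaryocyte-like cells and the lower reference level in MMPhigh, and their parts were not tested. Without MMPlow 2 the edgeR adjusted p of Gp5 was 0.0523 and its difference -1.35, and with cells thinned to 2000 UMIs that of Pf4 was 0.117.

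In macrophage-like cells 8 of the 10 genes had enough counts for the test, Gp1bb and Gp6 not. Each of the 8 had a negative difference and passed the edgeR test, where 45.3% of 13364 genes were called, 22.6% lower and 22.8% higher. All but Pf4 had most of their UMIs in MMPlow, so this count is no support for a change within macrophages. The UMIs of Pf4 numbered 2333 and 3603 in the MMPlow libraries, against 1963 and 5255 in the MMPhigh libraries. Itga2b was at 26.6 and 22.1 CPM in MMPlow and 3.31 and 3.05 CPM in MMPhigh, and it fell by 2.67 (SE 0.21, adjusted p = 2.7e-06); neural-like cells showed the same order. Pf4 had the smallest difference, -0.44 (SE 0.11, adjusted p = 0.00734), with 452 and 492 CPM against 310 and 267 CPM. Over the whole class this call was lost without MMPhigh 2 (-0.32, adjusted p = 0.115) and at 5000 UMIs or more (-0.24, adjusted p = 0.212). In the C1q-led cluster alone the difference of Pf4 was -0.79 (SE 0.13, edgeR adjusted p = 0.000144), where 20.5% of 11910 genes were called, 11.1% lower and 9.44% higher. Neural-like Pf4 had the same order, at 261 and 260 CPM in MMPlow and 36.1 and 49.3 CPM in MMPhigh. The part of free RNA in both Pf4 differences was not tested, so neither is shown to be a change within macrophages.

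The summed endothelial markers in macrophage-like cells moved with these genes, at 997 and 770 CPM in MMPlow and 43.1 and 51.4 CPM in MMPhigh, and the granulocyte and mast markers at 483 and 535 against 40.7 and 55.0 CPM. Macrophage markers moved the other way, at 4433 and 5122 against 9073 and 9320 CPM. Their part in the result was not tested.

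The gate differences of the 2 classes were then compared in 1 model with an interaction term. The term was positive, with the higher difference in megakaryocyte-like cells, and passed edgeR's test for each of the 10 genes, where 17.3% of 13768 genes were called, 7.17% in that direction and 10.1% in the other. This count supports nothing about the set: Gp1bb and Gp6 entered through their megakaryocyte-like counts alone, and the macrophage-like UMIs of the others, apart from Pf4, came mostly from MMPlow. The gap was 2.17 for Itga2b (adjusted p = 2.69e-12) and smallest for Pf4, at 0.74 (adjusted p = 0.00063). Neural-like levels were also higher in MMPlow, and the part of free RNA in the macrophage-like values was not tested. At 5000 UMIs or more the Pf4 gap was -0.60.

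**Figure D5:**
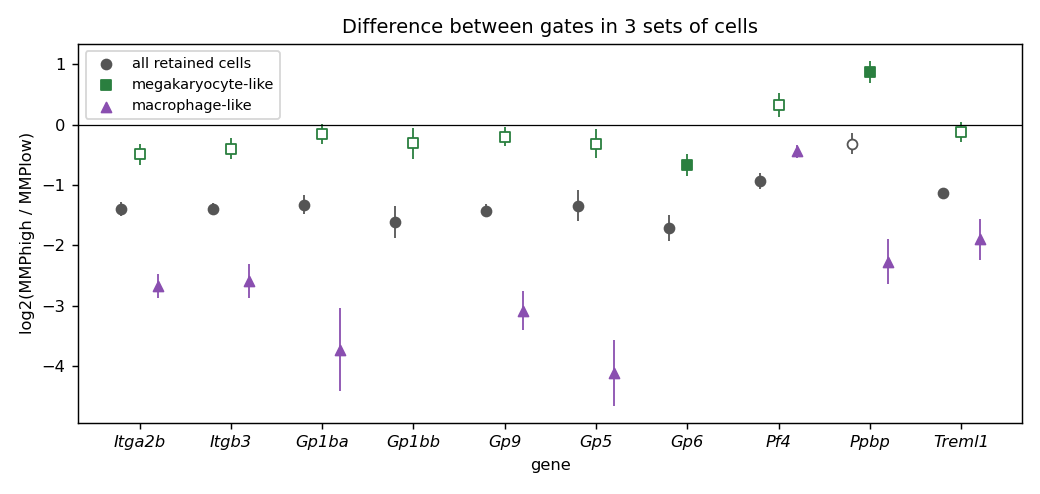
Log2 of MMPhigh over MMPlow for each gene in the sums of all retained, megakaryocyte-like and macrophage-like cells, with the standard error from edgeR; filled symbols have an adjusted p under 0.05 and open symbols do not. Ppbp is the one gene with a filled symbol above 0 (0.87, megakaryocyte-like), and Gp1bb and Gp6 have no macrophage-like value.

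Beyond the blood classes, Itgb3 was above the reference in germ cell-like cells of MMPhigh, where Itga2b was not. It was at 27.1 and 32.3 CPM in MMPhigh 1 and 2, against 2.14 and 3.91 CPM in neural-like cells, while Itga2b was at 1.80 and 0.936 CPM. In the 26 and 36 germ cell-like cells of MMPlow, Itgb3 was at 52.2 and 29.4 CPM, each from 4 UMIs. The beta chain also pairs with other alpha chains. Mesenchymal-like cells of MMPhigh were above the reference for Itgb3, at 24.2 and 9.84 CPM, and for Itga2b, at 17.5 and 7.69 CPM. The 2 cells and the 1 cell that held at least 5 of the genes carried 91.5% and 72.4% of these Itgb3 UMIs, while no germ cell-like cell of MMPhigh held 5. Mesenchymal-like cells of MMPhigh 1 had a Ppbp level of 39.0 CPM, but 2 of the 398 cells carried 207 of the 208 UMIs.

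Some cells with several of the genes lay outside the class. In MMPhigh 2, the unnamed Afp-led cluster had 30 cells among 145 with UMIs of at least 5 of the 10 genes, and they carried 222 of its 313 Ppbp UMIs. At resolution 2 a cluster of 5, 2, 26 and 102 cells, led by Ppbp, Thsd7b and Pf4, also took the megakaryocyte name. Its 102 MMPhigh 2 cells held Pf4 at 3532 CPM, Ppbp at 245 CPM and Itga2b at 134 CPM, and their median depth was 5594 UMIs against 35431 in the class described above. The 26 MMPhigh 1 cells of that cluster held 1 Pf4 UMI and no Ppbp UMI. Thsd7b, its second leading gene, also led neural-like clusters.

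Other platelet and megakaryocyte genes, 61 in 5 lists, gave the wider setting. In megakaryocyte-like cells 59 were tested, and 3 rose and 4 fell in MMPhigh, with a median difference of -0.03 against -0.02 over all genes tested. These counts stand beside 5.17% higher and 8.61% lower over all genes, so the genes named next are single values and not a property of the lists. None of the 12 platelet signalling genes passed. Of 13 transcription factors, Zfpm1, the GATA cofactor FOG1, rose by 0.75 (SE 0.16), from 169 and 131 CPM to 239 and 220 CPM. Of the cytoskeleton genes, the tubulin genes Tuba8 and Tuba4a rose by 1.21 and 0.64. Tuba8 went from 26.4 and 38.8 CPM to 54.9 and 79.4 CPM.

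The genes that fell were 2 surface receptors and 2 coagulation factors. Itga2, encoding a collagen-binding integrin chain, fell by 0.92 (SE 0.19), from 56.1 and 50.9 CPM to 29.1 and 23.6 CPM. Esam, an adhesion molecule that endothelium shares, fell by 0.63, from 79.7 and 75.2 CPM to 44.9 and 45.7 CPM. F13a1, encoding a clot-stabilising factor, fell by 0.79, from 136 and 137 CPM to 72.3 and 71.7 CPM. F5, encoding coagulation factor V, fell by 0.67, from 115 and 121 CPM to 71.5 and 64.8 CPM. Endothelial markers were at 1012, 891, 233 and 249 CPM in these sums, and F13a1 is also a leading gene of the macrophage-like cluster that held 1036 and 1225 MMPlow but 15 and 20 MMPhigh cells. Their part in these falls was not tested.

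Over all retained cells 9 of the 61 genes rose and 39 fell in MMPhigh, with a median of -0.50 against 0.01 over all genes, of which 27.1% were called higher and 26.4% lower. The largest falls within their lists were those of Itga2 (5.03) and Esam (4.60) among receptors and of Pdgfb (3.20), Mmrn1 (3.05) and Vwf (2.75) among granule genes. Tbxa2r, the thromboxane receptor gene, came next among receptors, at 12.1 and 11.5 CPM in MMPlow and 1.48 and 1.42 CPM in MMPhigh. Several of these are made by endothelial cells too, and endothelial-like cells numbered 15 and 13 in MMPhigh. Of the 10 cytoskeleton genes 6 fell, with the largest falls for Tpm4 (1.31) and Flna (0.715), and 1 rose. That was Dnm3, a dynamin of the demarcation membranes, which rose by 0.67, from 31.4 and 30.7 CPM to 43.8 and 52.4 CPM. Neural-like cells made up 3.34% and 3.09% of retained cells in MMPlow and 19.4% and 34.1% in MMPhigh. The part of cell classes in these changes was not tested.

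The genes whose pattern over cell classes was most like that of the set were found by correlation. Across 37 sums of a class in a library, which share libraries, log2(CPM + 10) of Cc2d2b had a Pearson r of 0.983 with the mean of the 10, each standardised first. Rab27b, a regulator of platelet granules, Ly6g6f, a platelet surface protein, Alox12, the platelet lipoxygenase, and Mrvi1 followed at 0.983, 0.983, 0.981 and 0.979. P2ry1, Cd226, Thbs1, F2rl2 and Sardh completed the 10 at 0.960 to 0.971. Rab27b, Alox12, Cd226 and F2rl2 had also served to name the class. Among the 10 members, Gp9 had the highest r with the mean of the set, 0.990, and Pf4 the lowest, 0.875.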

How the data were processed

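Single-cell RNA was captured with 10x 3' chemistry (v3 per the labels) from CD31+ cells of 4 libraries, 2 per TMRM gate, with up to 10000 cells aimed at per lane. The deposited values are raw UMI counts per gene and barcode, with no normalization. Cell Ranger 7.0.1 is named per the file headers and Cell Ranger 2.1.1 and mm10 per the submitters' processing notes, and this difference could not be resolved. The 4 matrices hold 59928, 23715, 13939 and 4288 barcodes. Cells with at least 2000 UMIs, at least 1000 genes and under 25% mitochondrial UMIs were kept. Scrublet marked 2, 996, 0 and 68 doublets; where it marked under 0.5% of cells, the highest 6% of scores were removed instead.

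Cells were clustered (scanpy 1.11.5, Leiden, resolution 1, 2000 variable genes, 30 components) without the 10 genes and named from marker lists. UMIs were summed per class and library, and CPM were computed here from those sums. Gates were compared by edgeR 4.0.16 (quasi-likelihood, TMM, filterByExpr, two-sided) in R 4.3.3, with Benjamini-Hochberg adjustment over all genes tested and a threshold of 0.05. Shares of cells with a UMI of a gene were taken after thinning each cell to 2000 UMIs unless full depth is stated. Cells with at least 5 of the 10 genes were counted at full depth unless thinning is stated. Exact intervals are at 95%. The statistics were tested on simulated data. Named were the 10 genes in every comparison, up to 3 called genes with the largest change from each of 5 other lists, and the 10 genes most alike in pattern. The members and lists were chosen with earlier results of these data known. Other cell and gene filters, doublet settings, resolutions, thinning, size factors, the DESeq2 1.42.0 Wald test, a replicate block and leaving out each library were tried. Progenitor-like cells were too few in MMPhigh for a fit.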

Additional observations from a re-analysis of the deposited data

Results flagged for a closer look

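The gate difference (log2 of MMPhigh over MMPlow) was higher in megakaryocyte-like than in macrophage-like cells for each of the 10 genes by the interaction term of the edgeR model, which is why they are listed. The call is no support for the set: 17.3% of 13768 genes were called, 7.17% in this direction, and Gp1bb and Gp6 entered through their megakaryocyte-like counts alone. Of 150 alternative values 22 lost the call, and at 5000 UMIs or more the gap of Pf4 was -0.60. The gap was 2.17 for Itga2b, 2.13 for Itgb3, 3.47 for Gp1ba, 2.99 for Gp1bb, 2.84 for Gp9, 3.52 for Gp5, 2 for Gp6, 0.74 for Pf4, 2.92 for Ppbp and 1.84 for Treml1. In neural-like cells, which should hold none of these transcripts, Pf4 stood at 261 and 260 CPM in MMPlow and at 36.1 and 49.3 CPM in MMPhigh, and the part of free RNA in the gaps was not tested. Apart from Pf4, the macrophage-like UMIs came mostly from MMPlow, as with Gp1ba at 1.94 and 2.05 CPM against 0 and 0.152 CPM in MMPhigh.

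Barcodes that the filters or the doublet step removed, and that entered only some of the alternative settings, also held several of the genes. UMIs of at least 5 of the 10 genes were found in 116 such barcodes of MMPlow 1, 94 of MMPlow 2, 24 of MMPhigh 1 and 3 of MMPhigh 2. Of these, in the same order, 62, 17, 20 and 0 had under 2000 UMIs, and 53, 75, 2 and 0 had been removed as doublets.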

How the results depend on the processing

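Of the 10 genes' values, those in all cells kept direction and side of the threshold in 154 of 160 alternatives, those in megakaryocyte-like cells in 149 of 170, those in macrophage-like cells in 125 of 128 and the interaction values in 127 of 150; another 22 interaction values lost the call and 1 reversed. The cause of the changes below was not tested. With cells of at least 5000 UMIs, Pf4 in megakaryocyte-like cells turned to -0.83, Ppbp to -0.0241 and the Pf4 interaction to -0.60. With cells thinned to 2000 UMIs, Gp9 there turned to 0.11 and Ppbp in all cells to 0.22. When a library was left out, Gp1bb ranged from -0.5744 (without MMPhigh 1) to 0.11 (without MMPhigh 2), Gp5 from -0.7305 to 0.0914 likewise, and Treml1 from -0.2482 (without MMPhigh 2) to 0.0195 (without MMPhigh 1). The gate difference in the share of megakaryocyte-like cells, -3.17 percentage points, was -1.21 with the looser and with the stricter cell filter, where the gates overlapped, -2.70 at resolution 0.5 and -1.08 at resolution 2. Without the Ppbp-led cluster there, an alternative added after seeing the data, it was -2.87. The shares of the genes' UMIs held by the class moved in 22 of 70 alternatives. Called genes in megakaryocyte-like cells, 1631 as reported, numbered 410 with the stricter filter, 352 thinned, 696 with the DESeq2 Wald test, 876 at resolution 2 without the Ppbp-led cluster, 2649 with the replicate block, and 625 (without MMPlow 1) to 2755 (without MMPhigh 1) when a library was left out. In macrophage-like cells 6059 became 3737 with the stricter filter, 3624 thinned and 2444 in the C1q-led cluster alone, an alternative added after seeing the data. For the interaction 2379 became 1226 with the stricter filter, 445 thinned, 687 with the DESeq2 Wald test and 1167 to 2417 when a library was left out. Replicate numbers are only shared numbers, with correlations of deviations of 0.118, 0.161 and 0.067 in all, megakaryocyte-like and macrophage-like cells. With the replicate block, calls numbered 10789 in all cells and 6175 in macrophage-like cells, and Itga2b and Itgb3 in megakaryocyte-like cells had edgeR adjusted p of 0.00891 and 0.0410. With 2 libraries a gate, of which MMPhigh 2 was far deeper, and 97 and 136 MMPhigh megakaryocyte-like cells, small differences were not detectable.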
